A study of Mus musculus with 18 samples.

Results

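The data concern 9 genes that encode receptors, or receptor chains, for cytokines of blood formation: *Flt3*, *Kit*, *Csf1r*, *Csf2ra*, *Csf2rb*, *Csf2rb2*, *Csf3r*, *Il7r* and *Epor*. They were chosen by gene symbol, and all 9 are listed in each of the expression tables, among 19710 genes for multipotent progenitors (MPPs), 19710 for CD115- common dendritic cell progenitors (CD115- CDPs) and 18378 for common lymphoid progenitors (CLPs). RNA-seq was performed on these 3 populations, sorted from the bone marrow of C57BL/6 mice 6 to 8 weeks of age, with 3 libraries for each genotype in each population and 18 in all. The wild-type (WT) mice were *Trim33* fl/fl. The other libraries carry the label Trim33-/- and come from *Trim33* fl/fl mice with Cre-ERT2, a Cre recombinase that tamoxifen activates throughout the body. Cre removes exons 2 to 4 of *Trim33*, which shifts the reading frame. In the study such mice were injected with 2 mg tamoxifen daily for 5 days and analysed 7 days after that, and its description of these RNA-seq samples gives the mice of both genotypes as treated with tamoxifen. Sorting took MPPs as lineage-negative cells with Sca-1, CD117, CD34 and FLT3, CD115- CDPs as lineage-negative and CD11c-negative cells with FLT3 and intermediate CD117 but neither CD115 nor CD127, and CLPs as lineage-negative, CD11c-negative cells with CD127, FLT3 and CD117, described as CD117-positive in places and as intermediate in others. *Kit*, *Csf1r*, *Il7r* and *Flt3* encode CD117, CD115, CD127 and FLT3, so that the gates themselves act on 4 of the 9 genes.

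The receptors fall into families by structure. FLT3, KIT and CSF1R are receptor tyrosine kinases, which phosphorylate themselves when FLT3 ligand, stem cell factor or M-CSF brings a pair of receptors together. The others are class I cytokine receptors, which have no kinase of their own and signal through bound JAK kinases and STAT transcription factors. The GM-CSF receptor joins a ligand-specific alpha chain (*Csf2ra*) to a beta chain (*Csf2rb*) that the receptors for IL-3 and IL-5 also use, and mice have in addition a second beta chain for IL-3 alone (*Csf2rb2*). CSF3R binds G-CSF, a growth factor of neutrophils, IL7R binds IL-7 together with the common gamma chain and is needed by lymphoid progenitors, and EPOR binds erythropoietin in red cell precursors. FLT3 ligand is the main growth factor of dendritic cell (DC) development.

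Values are FPKM, in which the fragments of a gene are divided by its transcript length and by the depth of the library, so that genes of different length share one scale. *Trim33* was 10.4, 10.1 and 8.78 FPKM in WT and 9.71, 11.7 and 4.80 FPKM in Trim33-/- libraries of MPPs, so the level over the whole gene did not separate the genotypes there, and the libraries are called KO-labelled for this reason. The deletion takes out 3 exons only. CD115- CDPs had *Trim33* at 14.3, 15.2 and 8.27 FPKM in WT and 9.64, 8.28 and 4.03 FPKM in KO-labelled libraries, and in CLPs it was 12.4, 7.01 and 8.86 against 7.52, 5.60 and 7.66 FPKM. In both, each KO-labelled library lay below the WT library of its number. The log2 fold change in CD115- CDPs was -0.74 (limma adjusted p = 0.528), which passed with the replicate number as a block (0.0258) and in no other alternative. The estimated depth was 19.1 to 21.1 M reads per library. KO-labelled replicate 3 of MPPs and replicate 3 of both genotypes in CD115- CDPs stood apart: their correlation with the other libraries of their group, across genes, was 0.942 to 0.955, 0.906 to 0.937 and 0.935 to 0.940, where the other pairs within a group had at least 0.9755. Every same-numbered pair of WT and KO-labelled libraries deviated together at r of 0.1 or more in CD115- CDPs and CLPs, but not in MPPs. A fit with the replicate number as a block is therefore given beside a result of CD115- CDPs and CLPs where it changes the call. Defining markers of each sorted type were present in its WT libraries, among them *Cd34* at 441 to 497 FPKM in MPPs, *Irf8* at 236 to 831 FPKM in CD115- CDPs and *Dntt* at 989 to 1135 FPKM in CLPs. The markers of CDPs and DCs do not set the CD115- CDPs apart, since *Irf8* was at 992 to 1132 FPKM in WT CLPs.

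The members called lower in KO-labelled libraries were *Csf1r*, *Csf2rb* and *Csf2rb2*. In CLPs *Csf2rb2*, *Csf2rb* and *Csf1r* were called lower, 3 of the 8 tested members, where 2.84% of all 12339 tested genes were called lower. In MPPs 1 of the 8 members tested in every population, *Csf1r*, was called lower, against 1.32% of 12372 genes. In CD115- CDPs 1 of 8 tested members, *Csf2rb2*, was called lower, against 0.0654% of 12229 genes, and with the replicate block 3 members, *Csf1r*, *Csf2rb* and *Csf2rb2*, against 1.46%. No member was called higher in any population. Here a gene is called when limma on log2(FPKM + 1) gives a change of 2-fold or more and, after Benjamini-Hochberg adjustment over all tested genes, p does not exceed 0.05. Over the 8 members tested in every population the median log2 fold changes of MPPs, CD115- CDPs and CLPs were -0.60, -0.82 and -0.28, and those of all tested genes were -0.11, -0.07 and 0.01. Fewer cells of a type and less RNA per cell cannot be told apart in such bulk libraries.

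**Figure D1:**
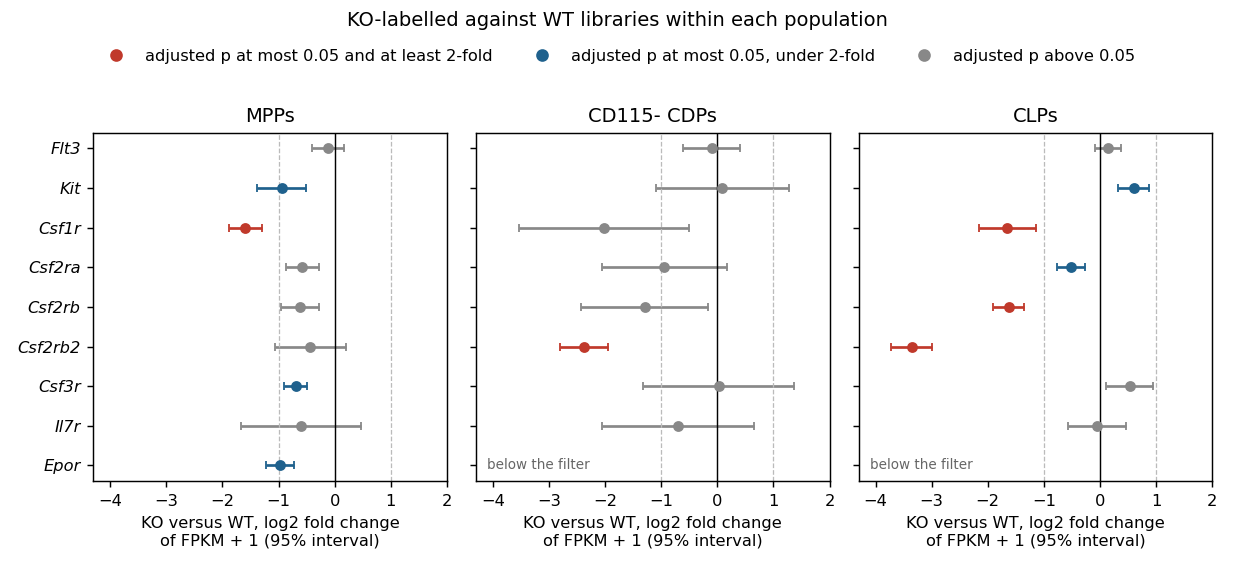
Log2 fold change of FPKM + 1, KO-labelled against WT libraries, with its 95% interval from limma for each receptor gene in each population (3 against 3 libraries, dashed lines at 2-fold). *Csf1r* lies at -1.59, -2.01 and -1.65 in the 3 populations, while *Csf2rb2* goes from -0.44 in MPPs to -3.36 in CLPs and *Kit* lies at -0.94 in MPPs and 0.60 in CLPs.

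The 2 beta chain genes lie next to each other on chromosome 15, *Csf2rb2* (Entrez 12984) at chr15:78282507-78305721 on the minus strand and *Csf2rb* (Entrez 12983) at chr15:78325800-78351001 on the plus strand of GRCm38, 20079 bases apart. Each has 13 coding exons, with 2688 coding bases in *Csf2rb* and 2634 in *Csf2rb2*. In the 9 exons that have the same length in both, 87.9% to 99.0% of bases are identical. The start of coding exon 3 is shown because it holds a stretch in which the genes can be told apart followed by one in which a read of 50 bases cannot be placed, and capitals mark the 6 bases that differ (coding sense, GENCODE vM21 on GRCm38; *Csf2rb* at chr15:78338802-78338891, plus strand, and *Csf2rb2* at chr15:78294440-78294529, minus strand).
Csf2rb: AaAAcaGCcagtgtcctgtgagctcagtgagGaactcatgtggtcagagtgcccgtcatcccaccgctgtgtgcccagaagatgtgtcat
Csf2rb2: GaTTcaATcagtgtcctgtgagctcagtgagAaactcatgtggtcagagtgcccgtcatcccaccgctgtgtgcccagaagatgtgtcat
Of the 4691 windows of 50 bases in the longest *Csf2rb2* transcript 892, or 19.0%, occur in a *Csf2rb* transcript as well, and 18.4% of the windows of *Csf2rb* occur in *Csf2rb2*. The authors' quantification divides such reads between the genes, so the level of each is uncertain to that extent, and the sum of both is given beside them.

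*Csf2rb2*, the beta chain for IL-3 alone, had the largest difference of the 9 genes. In CLPs its level was 52.3, 43.7 and 38.9 FPKM in the WT libraries and 2.92, 3.18 and 4.37 FPKM in the KO-labelled ones. The groups were far from overlapping, with a WT mean 12.9-fold above the KO-labelled mean. It fell by 3.36 on the log2 scale (SE 0.158, limma adjusted p = 6e-06). CD115- CDPs had 14.5, 15.7 and 16.4 FPKM in WT and 2.67, 1.74 and 2.19 FPKM in KO-labelled libraries, again without overlap and, unlike most receptor genes there, with little spread among the WT libraries. It fell by 2.38 on the log2 scale (SE 0.180, limma adjusted p = 0.0177). This call was lost without a filter on expression (adjusted p = 0.0594) and when WT replicate 1 (0.195), WT replicate 2 (0.102), KO-labelled replicate 1 (0.123) or KO-labelled replicate 2 (0.0876) was left out, while the log2 fold change stayed between -2.48 and -2.27 when any library was left out and the adjusted p ranged from 0.0014 to 0.195 over all alternatives. In MPPs *Csf2rb2* was 4.70, 5.19 and 3.97 FPKM in WT and 3.01, 5.03 and 1.93 FPKM in KO-labelled libraries, which overlap, with a log2 fold change of -0.44 (SE 0.266, limma adjusted p = 0.329, 95% interval -1.07 to 0.20).

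*Csf2rb*, the beta chain shared by GM-CSF, IL-3 and IL-5, was 30.7, 28.8 and 24.3 FPKM in WT and 7.76, 8.07 and 9.17 FPKM in KO-labelled CLPs. The ranges were well apart, and it fell by 1.63 on the log2 scale (SE 0.122, limma adjusted p = 6.8e-05). In CD115- CDPs its level was 12.9, 14.0 and 32.1 FPKM in WT against 5.91, 4.05 and 12.4 FPKM with the KO label. Replicate 3 was the highest of each genotype, and the ranges only just missed each other. The log2 fold change was -1.29 (SE 0.472, limma adjusted p = 0.428), and with the replicate block it was called (SE 0.139, adjusted p = 0.0091); without replicate 3 of both genotypes it was also called, at -1.29 (adjusted p = 0.0227), and over all alternatives the adjusted p was 0.0091 to 0.975. In MPPs *Csf2rb* was 15.2, 16.3 and 13.8 FPKM in WT and 8.41, 11.3 and 9.11 FPKM in KO-labelled libraries, without overlap, a log2 fold change of -0.61 (SE 0.142, limma adjusted p = 0.0691). Without KO-labelled replicate 3 the adjusted p was 0.0137, under 2-fold, and over all alternatives it reached 0.287.

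Summed over both genes, the beta chain FPKM was 63.2 to 83.0 in WT and 10.7 to 13.5 in KO-labelled CLPs, and the sum fell by 2.52 on the log2 scale (SE 0.133, limma adjusted p = 9e-06). In CD115- CDPs the sum was 27.4 to 48.5 FPKM in WT and 5.79 to 14.6 FPKM in KO-labelled libraries, without overlap, with a log2 fold change of -1.80 (SE 0.360) that did not pass (limma adjusted p = 0.243), while with the replicate block the sum was called (SE 0.144, adjusted p = 0.0043). In MPPs it was 17.8 to 21.5 and 11.0 to 16.4 FPKM, with a log2 fold change of -0.59 (SE 0.170, limma adjusted p = 0.112).

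The balance between the chains differed as well. *Csf2rb2* per *Csf2rb* was 0.287 to 0.318 in WT MPPs, 0.511 to 1.13 in WT CD115- CDPs and 1.51 to 1.70 in WT CLPs. In the KO-labelled libraries it was 0.212 to 0.444, 0.176 to 0.452 and 0.376 to 0.477, so that all 9 lay below 0.5. The sum of both beta chains per *Csf2ra* was 2.47 to 2.82 in WT and 0.574 to 0.703 in KO-labelled CLPs, and 0.570 to 1.08 and 0.366 to 0.497 in CD115- CDPs, without overlap in either. In MPPs it was 0.472 to 0.554 and 0.425 to 0.573, which overlap. These ratios of FPKM are a description and were not tested.

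**Figure D2:**
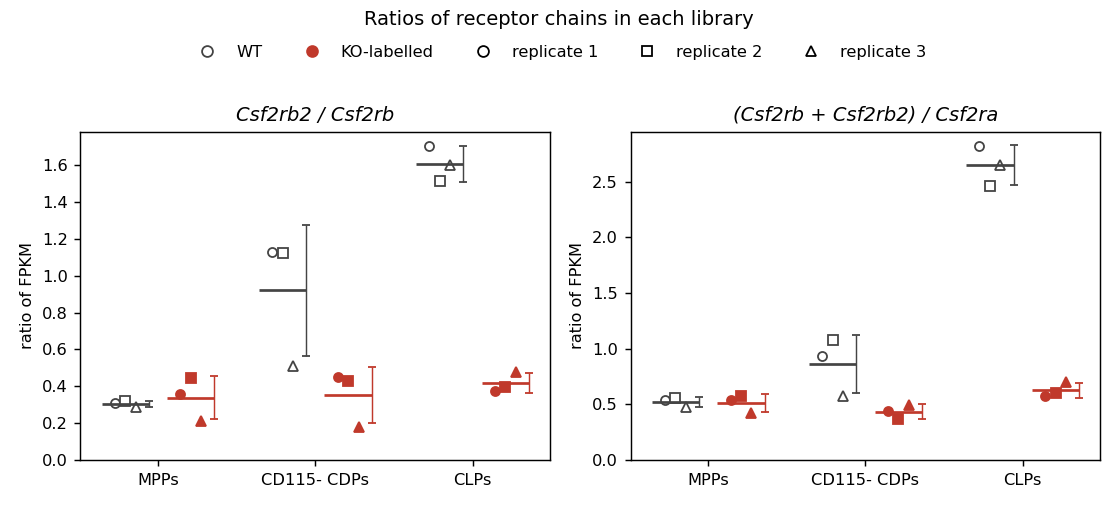
Ratio of *Csf2rb2* to *Csf2rb* FPKM (left) and of both beta chains to *Csf2ra* FPKM (right) in each library, with bars for the mean and whiskers for the SD of 3 libraries. WT CLPs have ratios of 1.51 to 1.70 and 2.47 to 2.82, and the KO-labelled CLPs 0.376 to 0.477 and 0.574 to 0.703.

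*Csf2ra* (Entrez 12982, chr19:61217191-61228461 of GRCm38), the alpha chain that makes the receptor specific for GM-CSF, was 37.3, 38.9 and 37.7 FPKM in WT and 21.3, 28.6 and 26.0 FPKM in KO-labelled MPPs. The groups did not overlap, but the log2 fold change of -0.58 (SE 0.124) did not pass (limma adjusted p = 0.0573, 0.0085 without KO-labelled replicate 3, and up to 0.245 over all alternatives). In CLPs it was 29.4, 29.4 and 23.9 FPKM against 18.6, 18.8 and 19.3 FPKM, again without overlap, and it fell by 0.51 on the log2 scale (SE 0.110, limma adjusted p = 0.0171), which is under 2-fold. The adjusted p was between 0.0541 and 0.0741 when WT replicate 2 or any KO-labelled library was left out. In CD115- CDPs its level was 29.4, 27.6 and 85.0 FPKM in WT against 19.5, 15.8 and 29.4 FPKM with the KO label, which overlap across replicate numbers although each KO-labelled library lay below the WT library of its number. The log2 fold change was -0.94 (SE 0.464, limma adjusted p = 0.534), and with the replicate block it passed at the same size (SE 0.184, adjusted p = 0.0345, the lowest of all alternatives). *Il3ra*, the alpha chain that joins the beta chains in the IL-3 receptor, had log2 fold changes of -0.10 (MPPs, limma adjusted p = 0.497), -0.41 (CD115- CDPs, 0.757) and -0.64 (CLPs, 0.0058, so that it fell there).

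*Csf1r* (Entrez 12978, on chromosome 18), the receptor for M-CSF and IL-34, had similar log2 fold changes in the 3 populations. In MPPs it was 15.6, 15.5 and 13.2 FPKM in WT and 4.54, 4.20 and 3.94 FPKM in KO-labelled libraries. These groups lay far apart with little spread, and it fell by 1.59 on the log2 scale (SE 0.124, limma adjusted p = 0.0025). In CLPs it was 26.3, 24.3 and 14.5 FPKM in WT and 5.05, 5.75 and 7.37 FPKM in KO-labelled libraries, without overlap, and it fell by 1.65 on the log2 scale (SE 0.222, limma adjusted p = 0.0018). In CD115- CDPs, sorted for the absence of its protein, the mRNA was nonetheless the highest of the 3 WT populations, at 57.0, 39.1 and 137 FPKM, against 11.5, 9.24 and 37.2 FPKM in KO-labelled libraries. Every KO-labelled value was below every WT value, and replicate 3 was again the highest of each genotype. Replicate 3 also had the highest granulocyte and monocyte marker sums of each genotype there (values below). Their part in the receptor levels of replicate 3 was not tested. The log2 fold change of -2.01 had an SE of 0.631 (limma adjusted p = 0.397). Blocking on the replicate number lowered the SE to 0.109 and it was called (adjusted p = 0.00082), and it was called as well without replicate 3 of both genotypes, at -2.10 (adjusted p = 0.0030). Over all alternatives the adjusted p in CD115- CDPs ran from 0.00082 to 0.975.

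**Figure D3:**
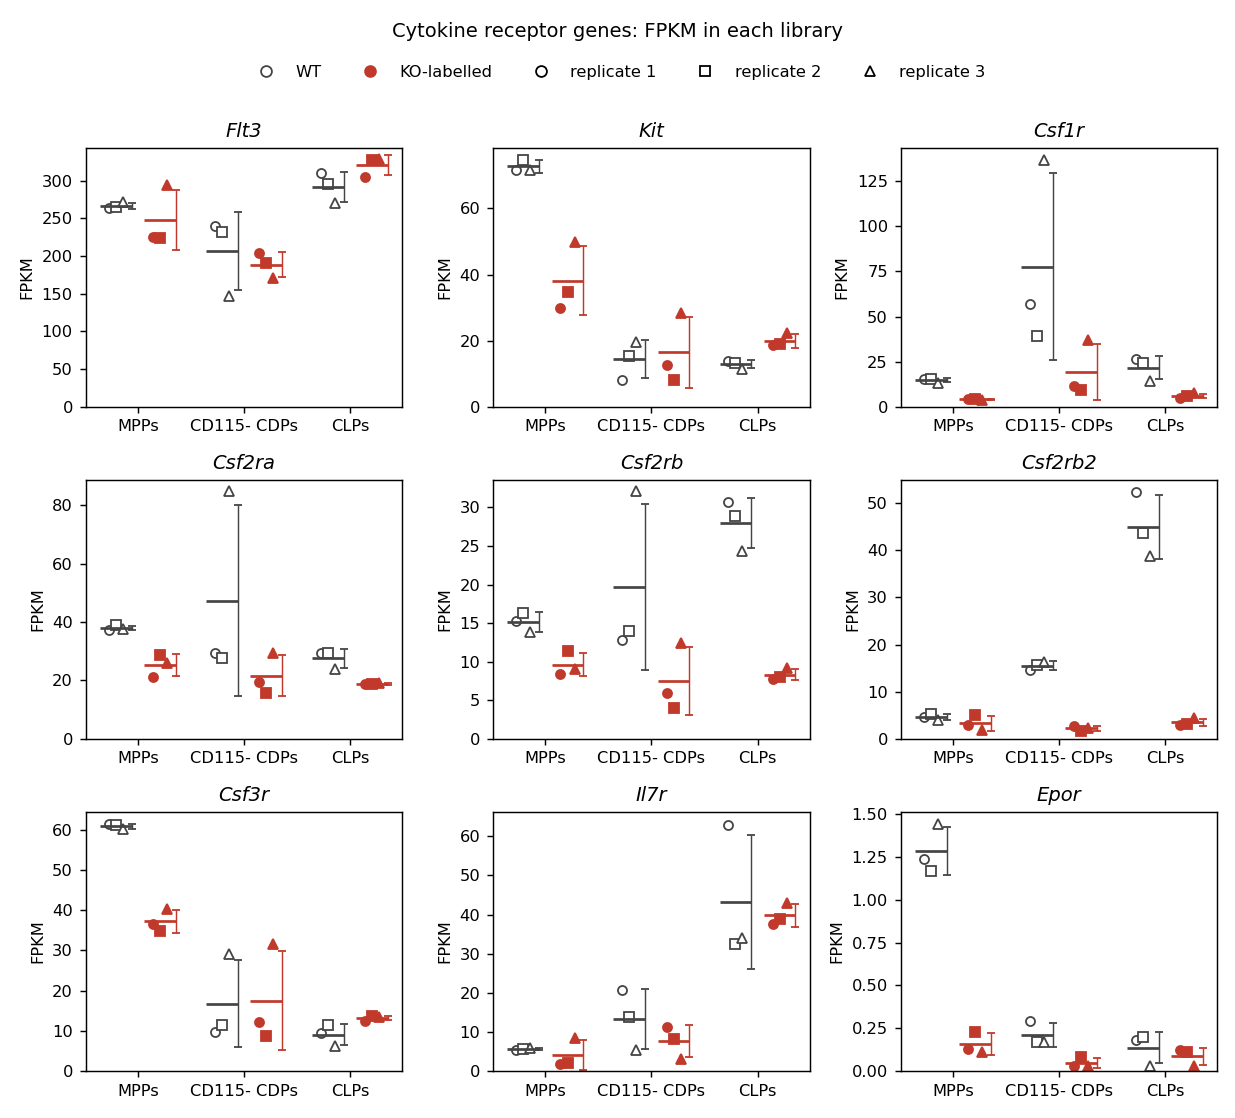
FPKM of the 9 receptor genes in each of the 18 libraries, with a bar for the mean and whiskers for the SD of 3 libraries. The vertical scale starts at 0 and differs between genes. *Csf2rb2* in CLPs has 38.9 to 52.3 FPKM in WT and 2.92 to 4.37 FPKM in KO-labelled libraries. In CD115- CDPs the triangles of replicate 3 stand above the other libraries of the same genotype for *Csf1r*, *Csf2ra*, *Csf2rb*, *Csf3r* and *Kit*.

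*Csf3r* (Entrez 12986, chr4:126023441-126044975), the receptor for G-CSF, was 61.4, 61.2 and 60.2 FPKM in WT and 36.5, 34.8 and 40.4 FPKM in KO-labelled MPPs. The WT libraries hardly differed and the groups did not overlap, and it fell by 0.70 on the log2 scale (SE 0.0891, limma adjusted p = 0.0146), under 2-fold. The adjusted p was 0.0610 to 0.119 when any WT library or KO-labelled replicate 1 was left out. In CLPs the order was the other way round, with 9.52, 11.3 and 6.25 FPKM in WT and 12.5, 13.6 and 13.3 FPKM in KO-labelled libraries. These do not overlap either, and the log2 fold change was 0.53 (SE 0.185, limma adjusted p = 0.0964); with the replicate block it rose, at an adjusted p of 0.0440, where all alternatives gave 0.0440 to 0.223. CD115- CDPs had 9.75, 11.3 and 29.2 FPKM against 12.1, 8.81 and 31.5 FPKM, where replicate 3 was the highest of each genotype. The log2 fold change was 0.02 (SE 0.563, limma adjusted p = 0.995, 95% interval -1.33 to 1.37).

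*Kit* (Entrez 16590, chr5:75574987-75656722), the stem cell factor receptor, had the same directions as *Csf3r*. In MPPs it was 71.6, 74.8 and 71.7 FPKM in WT and 29.9, 34.7 and 49.9 FPKM in KO-labelled libraries. The groups did not overlap, and KO-labelled replicate 3 was the nearest to WT. It fell by 0.94 on the log2 scale (SE 0.181, limma adjusted p = 0.0434). Without KO-labelled replicate 3 the log2 fold change was -1.15 and was called (adjusted p = 0.00079), while leaving out any other library gave an adjusted p of 0.116 to 0.190, and a pseudocount of 0.1 or another filter 0.0517 to 0.0674. In CLPs *Kit* was 13.8, 13.3 and 11.5 FPKM in WT and 18.6, 18.9 and 22.4 FPKM in KO-labelled libraries, and it rose by 0.60 on the log2 scale (SE 0.119, limma adjusted p = 0.0124), under 2-fold. Without KO-labelled replicate 3 the adjusted p there was 0.0557. CD115- CDPs had 8.08, 15.4 and 19.4 FPKM against 12.7, 8.11 and 28.4 FPKM, which overlap, with a log2 fold change of 0.09 (SE 0.493, limma adjusted p = 0.977). All 3 populations were gated on CD117.

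*Flt3* (Entrez 14255, chr5:147330741-147400489) was the most abundant member in all 18 libraries, all of which were gated on its protein. It was 264, 265 and 272 FPKM in WT and 225, 225 and 295 FPKM in KO-labelled MPPs, where replicate 3 lay above and the other 2 below WT. The log2 fold change was -0.12 (SE 0.118, limma adjusted p = 0.530), and -0.25 without KO-labelled replicate 3 (adjusted p = 0.0137), with an adjusted p of up to 0.983 over all alternatives. CD115- CDPs had 240, 233 and 147 FPKM against 204, 190 and 171 FPKM, a log2 fold change of -0.10 (limma adjusted p = 0.917, 95% interval -0.60 to 0.40). In CLPs it was 309.9, 295 and 270.0 FPKM against 306, 327 and 329.5 FPKM, a log2 fold change of 0.14 (limma adjusted p = 0.408, 95% interval -0.10 to 0.37). A difference was not detectable in any population with all libraries, and the intervals leave room for less than 2-fold in each direction.

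*Il7r* (Entrez 16197, chr15:9506159-9529941) was 63.0, 32.6 and 33.9 FPKM in WT and 37.6, 38.8 and 43.1 FPKM in KO-labelled CLPs, the cells gated on CD127. The KO-labelled libraries lay within the WT range, with a log2 fold change of -0.05 (SE 0.228, limma adjusted p = 0.909) that was 0.25 without WT replicate 1. In MPPs it was 5.27, 5.50 and 5.87 FPKM in WT and 1.89, 1.97 and 8.41 FPKM in KO-labelled libraries, so that KO-labelled replicate 3 stood above and the other 2 below every WT library. The log2 fold change of -0.60 (SE 0.448, limma adjusted p = 0.408) was -1.16 and called without that library (adjusted p = 0.00095), and over all alternatives the adjusted p reached 0.755. In CD115- CDPs, gated as CD127-, it was 20.6, 13.9 and 5.34 FPKM against 11.3, 8.21 and 3.17 FPKM, with replicate 3 the lowest of each genotype. The groups overlap, yet each KO-labelled library lay below the WT library of its number: the log2 fold change of -0.71 had an SE of 0.566 (limma adjusted p = 0.722) and with the replicate block an SE of 0.113 (adjusted p = 0.0244, the lowest of all alternatives).

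*Epor* (Entrez 13857, chr9:21958897-21963576) was the scarcest member. In MPPs it was 1.24, 1.17 and 1.44 FPKM in WT and 0.13, 0.23 and 0.11 FPKM in KO-labelled libraries, where 1 read on its longest transcript is worth about 0.0288 FPKM. The WT mean was 8.19-fold above the KO-labelled mean and the groups did not overlap. It fell by 0.98 on the log2(FPKM + 1) scale (SE 0.105, limma adjusted p = 0.0077), a scale that shrinks the change of a gene near 1 FPKM. With a pseudocount of 0.1 the log2 fold change was -2.45 (adjusted p = 0.0131), and over all alternatives the adjusted p was 0.0017 to 0.0572, above 0.05 without WT replicate 1 (0.0572) or WT replicate 3 (0.0532). *Epor* passed the filter in MPPs only through its WT libraries. It was under the filter in CD115- CDPs, at 0.17 to 0.29 FPKM in WT and 0.03 to 0.08 FPKM in KO-labelled libraries, and in CLPs, at 0.03 to 0.20 and 0.03 to 0.12 FPKM, levels of few reads. Of 11 erythroid markers, 10 were called lower in KO-labelled MPPs, with *Hba-a1* at 139 to 162 FPKM against 0.29 to 4.06 FPKM. The summed level of the 11 was 385 to 411 FPKM in WT and 33.4 to 61.4 FPKM in KO-labelled libraries. Most of the KO-labelled sums was *Hbb-bt*, the marker not called. It was at 42.9 to 63.1 FPKM in WT and 31.4 to 49.05 FPKM in KO-labelled libraries, which overlap. *Hbb-bs*, *Hba-a2*, *Ahsp* and *Slc4a1* were listed at 0 in at least 1 KO-labelled library. *Slc4a1*, *Alas2* and *Klf1* were under 0.5 FPKM in every KO-labelled library of MPPs, and *Hba-a2*, *Ahsp*, *Gata1* and *Ermap* in all but 1. Like *Epor*, these markers passed the filter only through their WT libraries, so the count called lower is not independent of that level. The part of the erythroid markers in the *Epor* result was not tested.

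By counts at any size of change, and without *Epor*, which entered through its WT level, 3 of 8 members (*Csf1r*, *Csf3r* and *Kit*) fell in MPPs at an adjusted p of at most 0.05, where 3.52% of all genes did. For 5 of the 8 the KO-labelled libraries all lay below the WT libraries there, as for 23.3% of genes. In CLPs 4 of 8 (*Csf1r*, *Csf2ra*, *Csf2rb* and *Csf2rb2*) fell, against 8.92% of genes, and 1 (*Kit*) rose, against 5.41%, or 2 (*Csf3r* and *Kit*) with the replicate block, against 8.44%. The same 4 were below WT without overlap, as were 18.6% of genes, and *Csf3r* and *Kit* above it, as were 15.3%. In CD115- CDPs 3 of 8 tested members lay below WT without overlap (*Csf1r*, *Csf2rb* and *Csf2rb2*), against 10.6% of genes, and with the replicate block 5 fell at any size (*Csf1r*, *Csf2ra*, *Csf2rb*, *Csf2rb2* and *Il7r*), against 5.56%.

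A fit over all 18 libraries with an effect of the KO label in each population asked for the average effect and for its differences. On average over the populations 3 of 8 members were called lower, where 1.3% of genes were: *Csf2rb2* at -2.06 (SE 0.126), *Csf1r* at -1.75 (SE 0.257) and *Csf2rb* at -1.18 (SE 0.186), with limma adjusted p of 4.4e-08, 0.00030 and 0.00056. *Csf2ra* fell on average by 0.68 (SE 0.182, limma adjusted p = 0.0188), under 2-fold. The effect differed between populations for 1 of 8 members, *Csf2rb2* (limma F test, adjusted p = 0.00013), where 2.45% of genes passed. On the log2 scale its effect in CLPs less that in MPPs was -2.92, that in CD115- CDPs less that in MPPs -1.94, and that in CLPs less that in CD115- CDPs -0.98 (SE 0.308 each). For the sum of both beta chains the F test passed too (adjusted p = 0.0258). For *Kit* the effect in CLPs less that in MPPs was 1.54 (SE 0.488) and for *Csf3r* 1.23 (SE 0.550), without passing the F test (limma adjusted p = 0.209 and 0.437). With the replicate number of every population as a block 4 members passed, against 8.67% of genes: *Csf2rb2* (0.00036), *Csf3r* (0.0195), *Csf2rb* (0.0245) and *Kit* (0.0480). For *Csf1r* the F test gave an adjusted p of 0.882, with a difference of -0.06 between CLPs and MPPs whose SE was 0.630.

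Across the WT populations the levels are a description, since each population is a table of its own. The gates also act on 4 of these receptors, and on all 4 only in CD115- CDPs. *Csf2rb2* was lowest in MPPs, with a mean of 4.62 ± 0.614 FPKM (SD, n = 3), followed by CD115- CDPs with 15.5 ± 0.932 and CLPs with 45.0 ± 6.81, and none of these overlap. *Il7r* had the same order, with 5.55 ± 0.303, 13.3 ± 7.65 and 43.2 ± 17.2 FPKM, of which the first 2 overlap. *Csf2rb* did too, with 15.1 ± 1.26, 19.6 ± 10.8 and 28.0 ± 3.28 FPKM, where neighbours in the order overlap. *Kit* and *Csf3r* were highest in MPPs, at 72.7 ± 1.82 and 60.9 ± 0.628 FPKM, and their ranges in CD115- CDPs and CLPs overlap. *Csf1r* was highest in CD115- CDPs, and MPPs and CLPs overlap. *Csf2ra* had 47.3 ± 32.6 FPKM in CD115- CDPs, which overlap with the 38.0 ± 0.819 FPKM of MPPs, and 27.5 ± 3.20 FPKM in CLPs, below the MPPs. *Flt3* had 292 ± 20.2 FPKM in CLPs, overlapping with 267 ± 4.13 in MPPs, and 206 ± 51.8 FPKM in CD115- CDPs. In all, 9 of the 18 pairs of neighbouring WT populations did not overlap. In the KO-labelled libraries *Csf2rb2* had 1.93 to 5.03, 1.74 to 2.67 and 2.92 to 4.37 FPKM in MPPs, CD115- CDPs and CLPs, and *Csf2rb* 8.41 to 11.3, 4.05 to 12.4 and 7.76 to 9.17 FPKM, so that for both genes neighbours in the order of their means overlap, while *Csf2rb2* in CD115- CDPs lay below CLPs.

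The rest of the cytokine pathway was read from lists of genes. Of 12 ligand genes, 2 or 3 were tested in each population, and none was called. Of 25 other receptor chains, 22 or 23 were tested in each population. In CD115- CDPs none was called, and with the replicate block *Il10ra*, an IL-10 receptor chain, was called lower at -1.03 (SE 0.164, limma adjusted p = 0.0244). *Lifr*, a signalling chain for leukaemia inhibitory factor, was called lower in CLPs, from 19.7, 14.3 and 13.6 FPKM to 4.13, 3.92 and 6.33 FPKM, and it fell by 1.55 (SE 0.193, limma adjusted p = 0.0012). At any size of change 5 of 22 chains fell in CLPs (*Lifr*, *Il6ra*, *Ifnar2*, *Il2rb* and *Il3ra*) and 4 rose (*Il2rg*, *Il15ra*, *Il12rb1* and *Il27ra*). Among those that rose was *Il2rg*, the common gamma chain that pairs with *Il7r*, at 0.94 (SE 0.0966, limma adjusted p = 0.00043); these names at any size were chosen after their values were seen.

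Downstream of the receptors, 1 of 10 JAK and STAT genes was called lower in CLPs. *Stat2* went from 27.8, 27.8 and 22.8 FPKM to 10.1, 10.7 and 10.7 FPKM (log2 fold change -1.23, SE 0.112, limma adjusted p = 0.00021). STAT2 is best known from interferon signalling. At any size of change 4 of the 10 fell in CLPs, *Stat2* among them, and 2 rose (limma adjusted p of at most 0.05). Of all tested genes 8.92% fell and 5.41% rose there. *Stat5a*, a main STAT of these receptors, had log2 fold changes of -0.42, -0.02 and -0.13 in MPPs, CD115- CDPs and CLPs (limma adjusted p = 0.191, 0.993 and 0.539). None of 12 adaptor genes, 14 negative regulators or 8 STAT5 target genes was called in any population with or without the block. Without KO-labelled replicate 3 of MPPs, *Cish* was called higher at 1.79 (limma adjusted p = 0.0043) and *Socs3*, *Socs5* and *Id1* lower at -1.07, -1.03 and -1.17 (*Id1* also without KO-labelled replicate 1), as were 4 of the other receptor chains (*Il10ra*, *Il10rb*, *Il11ra1* and *Il15ra*, -1.28 to -1.004). The STAT5 targets had a median log2 fold change of -0.45 in MPPs and 0.33 in CLPs. *Socs3*, an inhibitor of receptor signalling on both of the last lists, fell in MPPs by 0.98 (limma adjusted p = 0.0073) and *Osm* by 0.72 (0.0283), both under 2-fold.

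**Figure D4:**
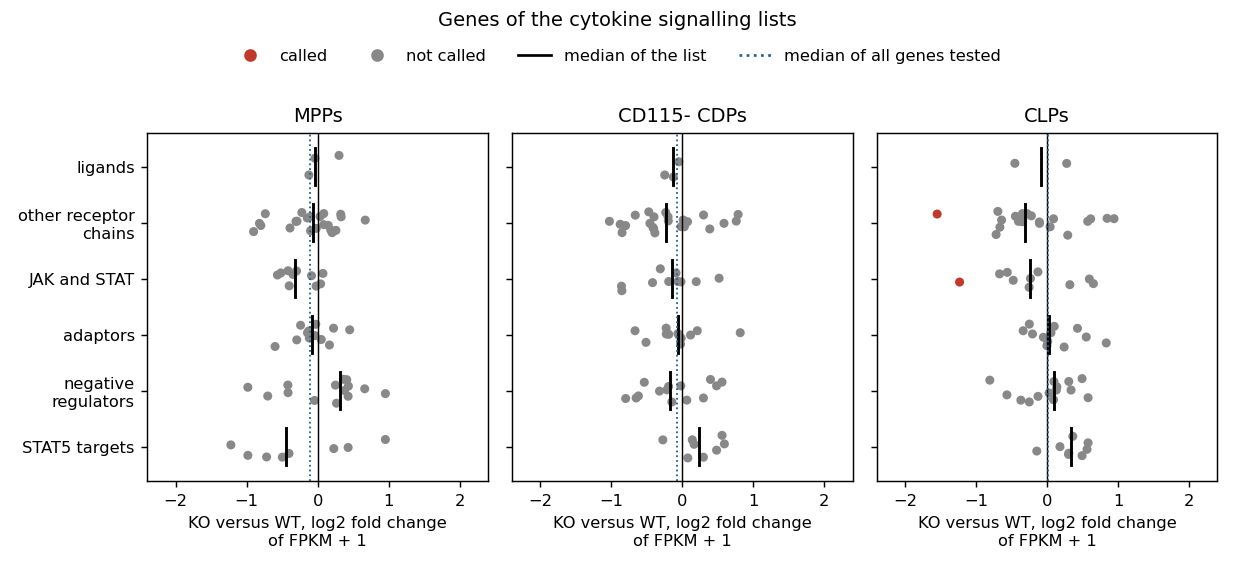
Log2 fold change of FPKM + 1, KO-labelled against WT libraries, for each tested gene of 6 lists of cytokine signalling (points), with the median of the list (bar) and of all tested genes (dotted line). The called genes are *Lifr* and *Stat2* at -1.55 and -1.23 in CLPs, and the medians lie between -0.45 and 0.33.

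Markers of other cell types moved with several of these results, and their part in them was not tested. In CLPs all 6 tested markers of CDPs and DCs were called lower, and the sum over the list was 1337 to 1572 FPKM in WT and 190 to 231 FPKM in KO-labelled libraries. *Cd209a* of that list was at 0.04 FPKM in KO-labelled replicate 1 and listed at 0 in the other 2, so it passed the filter only through its WT libraries. Of the 8 monocyte markers 3 were called lower in CLPs, with sums of 317 to 465 and 149 to 296 FPKM. Of 7 tested erythroid markers 3 were called lower there (36.8 to 58.8 and 6.63 to 10.6 FPKM), and of 12 granulocyte markers 0, but 7 with the replicate block (446 to 1073 and 254 to 439 FPKM). Of the CLP markers *Rag1* was called higher and *Ly6d* lower, with sums of 1903 to 2425 and 2370 to 2724 FPKM. *Dntt*, the largest part of these sums, was 989, 1012 and 1135 FPKM in WT and 1891, 2277 and 2090 FPKM in KO-labelled CLPs. Its ranges did not overlap. It rose there at a limma adjusted p of at most 0.05 but just under 2-fold, and so was not called. In CD115- CDPs 1 of 7 tested CDP and DC markers, *Itgax*, was called lower and 4 with the replicate block (sums of 356 to 940 and 128 to 307 FPKM, *Cd209a* listed at 0 in every KO-labelled library), and 0 of 8 monocyte markers and 5 with the block (sums of 333 to 2292 and 258 to 399.9 FPKM). The *Itgax* call was lost without a filter (adjusted p = 0.0838) and when any library was left out (0.102 to 0.344). Replicate 3 of CD115- CDPs differed in its marker sums in both genotypes. Granulocyte sums of replicates 1, 2 and 3 were 707, 778 and 4632 FPKM in WT and 1119, 836 and 4519 FPKM in KO-labelled libraries. Monocyte sums were highest in replicate 3, at 2292 FPKM in WT and 399.9 FPKM in the KO-labelled library. B cell sums were lowest there, at 60.5 and 45.8 FPKM. In MPPs, besides the erythroid markers, 4 of 8 monocyte markers (669 to 692 and 263 to 397 FPKM), 4 of 12 granulocyte markers (3688 to 3823 and 1629 to 2704 FPKM), 4 of 8 basophil and mast cell markers (234 to 263 and 88.5 to 144 FPKM) and 1 of 4 tested megakaryocyte markers, *Itga2b* (list sums of 20.4 to 23.2 and 8.70 to 11.1 FPKM), were called lower, and 3 of 8 immediate early genes (8664 to 9397 and 2637 to 3627 FPKM). When a WT library of MPPs was left out, 9 erythroid, 3 monocyte, 0 to 1 basophil and mast cell, 1 immediate early and 0 granulocyte or megakaryocyte markers were called. The sums over the T and NK cell markers went the other way, without overlap, from 38.9 to 49.4 FPKM in WT to 84.3 to 93.8 FPKM in KO-labelled CD115- CDPs and from 22.8 to 39.1 FPKM to 69.7 to 85.0 FPKM in CLPs. These sums were mostly 1 gene, *Nkg7*, at 25.2, 33.1 and 27.9 FPKM in WT and 72.7, 69.1 and 72.0 FPKM in KO-labelled CD115- CDPs. In CLPs *Nkg7* was 19.6, 30.5 and 35.0 FPKM against 66.9, 81.6 and 74.2 FPKM. Of the 8 markers 5 were under 1 FPKM in every CLP library, and *Cd3e* was listed at 0 in the KO-labelled ones. *Nkg7* was called higher in CLPs and, with the replicate block, in CD115- CDPs, where *Cd3g* was then called lower. Of the markers of B cells and of the lineage gate, at most 1 per list was called in any population. With the block, CD115- CDPs also had 1 erythroid marker called lower and 1 higher, 2 basophil and mast cell markers lower, and of the CLP markers *Ly6d* lower and *Dntt* higher, and CLPs had 1 basophil and mast cell marker lower. Of the 6 MPP markers none was called. At a limma adjusted p of at most 0.05, 3 fell in MPPs and 2 rose in CLPs. Of all genes 3.52% and 5.41% did. Their sums were 651 to 734.5 FPKM in WT and 464 to 636 FPKM in KO-labelled MPPs, without overlap. In CLPs they were 251 to 261 and 329 to 365 FPKM, also without overlap, while in CD115- CDPs they overlapped. The part of the MPP markers in the *Kit* and *Csf3r* results was not tested. None of the markers was listed at 0 in all 6 libraries of a population.

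Similarity of pattern was measured with Pearson's r of log2(FPKM + 1) over the 18 libraries, which share population, genotype and replicate number, among 11444 genes. Of the members, *Kit* and *Csf3r* were the most alike (r = 0.938), followed by *Csf2rb* and *Csf2rb2* (0.845, with shared reads), and *Csf3r* and *Il7r* were the most opposed (-0.746). The 3 genes most like each member were *Lrrc16a*, *Tbc1d8* and *Srgap3* for *Csf2rb2* (0.981 to 0.977), *Trim3*, *Sirpa* and *Cd300a* for *Csf2rb* (0.960 to 0.936) and *Zbtb7b*, *Naaa* and *Slc31a2* for *Csf2ra* (0.959 to 0.953). For *Csf1r* they were *Ms4a6c* (0.976), *Atp6ap1* and *Fcer1g*, for *Kit* *Gm13152* (0.968), *Lmo2* and *Aldh1l1*, and for *Csf3r* *Dgkg* (0.985), *Lbp* and *Ocrl*. For *Flt3* they were *Mcoln2* (0.939), *Fam234b* and *Nek8*, for *Il7r* *Gphn* (0.968), *Gpr25* and *St6gal1*, and for *Epor* *Rtkn* (0.938), *Ahsp* and *Car1*. *Ahsp* and *Car1* are genes of red cells, and *Ms4a6c* and *Car1* are among the marker genes above.

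Genes beside the members were compared as well. *Ncf4*, 19925 bases from *Csf2rb2*, had log2 fold changes of -0.22, -0.08 and 0.06 in MPPs, CD115- CDPs and CLPs, and *Tst*, on the far side of *Csf2rb*, -0.39, 0.62 and 0.22, and neither was called. *Pdgfrb*, 20505 bases from *Csf1r*, was called lower in MPPs at -1.19 (SE 0.190, limma adjusted p = 0.0264) and had -0.48 and -0.07 in CD115- CDPs and CLPs, which did not pass (adjusted p = 0.618 and 0.799). The other neighbours tested were not called.

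Promoters were searched for short motifs because the study concerns the transcription factor PU.1. The search covered the 250 bases before the start in RefSeq sequences of GRCm38.p6, on both strands. Searched were GAGGAA, with its reverse complement TTCCTC, as the core of PU.1 sites. The motif AGATAA stood for factors of the GATA family. The motif TGTGGT stood for RUNX factors, and none of the 3 strings contains another. A sequence was at hand for *Csf2ra*, *Csf2rb2*, *Csf3r*, *Epor*, *Flt3*, *Il7r* and *Kit*. The window of *Csf3r* (chr4:126024409-126024658) lay inside the gene span given above. Those of *Csf2ra* and *Il7r* partly overlapped the spans of their genes. GAGGAA occurred 2 times in *Csf2ra* and 1 time each in *Csf2rb2*, *Csf3r* and *Kit*, and in 23.3% of all 32851 promoters. *Epor* held 1 AGATAA, found in 9.99% of promoters, and 1 TGTGGT, found in 14.0%. Neither *Flt3* nor *Il7r* held any of the 3 strings in this window. The promoters of *Csf2rb2* (chr15:78305722-78305971, minus strand), which fell most, and of *Kit* (chr5:75574737-75574986, plus strand), whose change had opposite signs in MPPs and CLPs, are shown with the match in capitals.
Csf2rb2: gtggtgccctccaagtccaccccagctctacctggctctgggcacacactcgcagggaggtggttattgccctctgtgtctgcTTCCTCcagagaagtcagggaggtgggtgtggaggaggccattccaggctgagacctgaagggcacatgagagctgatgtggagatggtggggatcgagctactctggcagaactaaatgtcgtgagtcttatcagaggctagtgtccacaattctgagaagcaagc
Kit: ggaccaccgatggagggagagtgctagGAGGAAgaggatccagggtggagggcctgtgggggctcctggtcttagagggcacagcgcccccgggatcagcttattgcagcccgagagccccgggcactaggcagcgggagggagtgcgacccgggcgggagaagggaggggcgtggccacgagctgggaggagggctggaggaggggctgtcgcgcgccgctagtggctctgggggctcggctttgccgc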

How the data were processed

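RNA-seq libraries of 3 populations, with 3 WT and 3 KO-labelled libraries each, were used. Per the labels and methods, poly-A RNA was read as single ends of 50 bases, and the authors processed the reads against mm10 with tools that include HISAT2 2.0.4, Bowtie2 2.2.5 and RSEM 1.2.12. The authors deposited FPKM for each gene in each library, to 2 decimals, and read counts were not used here. Depth was estimated from the steps between low FPKM values of 291 to 357 genes with a single transcript per library, without assigning whole reads to genes. Groups came from the labels, and p-values measure the spread between these samples.

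Within each population, genes averaging 0.5 FPKM or more over its 6 libraries entered a fit of log2(FPKM + 1) by limma 3.58.1 (R 4.3.3, eBayes with a trend, two-sided), and a fit over 18 libraries with an intercept for each population gave averages and interactions. The fits without the block were also run on simulated data with independent noise in each library. Those data hold no effect shared by a replicate number, so the run says nothing on the blocked fits. Summaries used pandas 2.3.3 in Python 3.11.15. Alternatives were a pseudocount of 0.1, no filter, a filter at 5 FPKM, TPM, median ratio scaling, no trend, the replicate block, no minimum fold change, both beta chains summed, each library left out, and, chosen after seeing the data, replicate 3 of both genotypes left out in MPPs and CD115- CDPs and the replicate block for the summed beta chains.

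The replicate numbers shared by the labels of both genotypes were checked as a pairing by correlating deviations from group means: same-numbered libraries had r of 0.437 to 0.790 in CD115- CDPs and 0.131 to 0.400 in CLPs, and libraries of different numbers had means of -0.26 and -0.14. Some libraries of different numbers also had positive r, up to 0.663 in CD115- CDPs and 0.234 in CLPs. Deviations from a group mean sum to 0, so the means of different numbers are not an independent contrast. The numbers were taken to pair the libraries there because every same-numbered pair met the criterion of 0.1. By the mean of same-numbered pairs the choice would differ, since it was 0.63 in CD115- CDPs, 0.29 in CLPs and 0.33 in MPPs. MPPs were thus set apart from CLPs by 1 pair alone, at r of 0.0382. What a replicate number marks is not given by the labels, and all blocked values rest on this choice.

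The genes named are the 9 members, *Trim33*, called genes of the pathway lists (at most 4 per list and population), marker genes set beside a result and the 3 genes most like each member. Pathway genes named without a call from all libraries, such as *Il3ra*, *Stat5a*, *Socs3* and *Osm*, were picked outside this rule. Genes beside the members are named as well. The pathway and marker lists leave out 3 genes that are not reported here, also in counts, medians and sums. The members and all lists were chosen with earlier results of these data known.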

Additional observations from a re-analysis of the deposited data

Results flagged for a closer look

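Of the receptor genes, 3 were picked out for the effect of the KO label in different populations, 1 by a test of the difference and 2 by opposite directions alone. *Csf2rb2* passed the test of the difference itself (limma F test over the 3 populations, adjusted p = 0.00013136), and its log2 fold changes were -0.44, -2.38 and -3.36 for MPPs, CD115- CDPs and CLPs. When each of the 18 libraries was left out in turn, its adjusted p lay between 2.8e-05 and 0.00085. With a pseudocount of 0.1 in place of 1, its effect in CLPs less that in MPPs was -3.10 (adjusted p = 0.00096), against -2.92.

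*Kit* was picked out because every KO-labelled library lay below every WT library in MPPs and above every one in CLPs. The effect in CLPs less that in MPPs was 1.54 on the log2 scale (1.54117, SE 0.488). The F test gave a limma adjusted p of 0.209, and 0.0480 with the replicate number as a block. *Csf3r* met the same criterion with 1.23 (1.22653, SE 0.550), a limma adjusted p of 0.437, and 0.0195 with the block. The replicate numbers did not meet the pairing criterion in MPPs, so the blocked values of *Kit* and *Csf3r* rest on a pairing that met it in 2 of the 3 populations. Groups of 3 libraries were not tested for single outlying libraries.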

How the results depend on the processing

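With 3 libraries in a group, the counts of calls in MPPs and CD115- CDPs depended on single libraries more than those in CLPs: leaving out each library in turn gave 63 to 914 called genes in MPPs (183 with all), 0 to 10 in CD115- CDPs (13 with all) and 409 to 475 in CLPs (434 with all). Members called ranged from 1 to 3, 0 to 1 and 3 to 3, and the average over populations gave 3 and the interaction 1 each time. The 3 leave-outs with 0 calls in CD115- CDPs (WT replicates 1 and 2, KO-labelled replicate 1) left 600, 1141 and 963 genes at an unadjusted p under 0.05 in limma, the only tool run. Without replicate 3 of both genotypes there were 781 called genes and 3 members in MPPs, and 203 genes and 3 members in CD115- CDPs.

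The filter at 5 FPKM gave 74 genes in MPPs and 283 in CLPs, where fewer genes were tested. No minimum fold change gave 475 and 1768 genes, and 4 and 5 members. In MPPs a pseudocount of 0.1 and TPM each called 2 members. In CD115- CDPs no filter left 3 genes and 0 members, summing the beta chains left 0 members, and the replicate block gave 224 genes and 3 members. For the interaction no filter passed 2 members and the block 4. The cause of the differences with no filter was not tested. In MPPs, where same-numbered libraries had r of 0.0382 to 0.482 (mean 0.33, against -0.16 for different numbers) and the criterion of 0.1 in every pair was missed, the block gave 188 genes and 1 member, and *Kit* had an adjusted p of 0.0512 (0.0434 without the block).

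Signs turned only for values that did not pass: in MPPs *Flt3* to 0.0029 with median ratio scaling, and *Trim33* to 0.12 without KO-labelled replicate 3 (-0.45 to 0.12 over libraries left out) and 0.047 without replicate 3 of both genotypes. In CD115- CDPs *Csf3r* turned to -0.10 and *Kit* to -0.029 with TPM, and to -0.022 and -0.13 without replicate 3 of both genotypes; over libraries left out one at a time *Csf3r* ran from -0.49 to 0.48, *Kit* from -0.38 to 0.47 and *Flt3* from -0.33 to 0.025. In CLPs *Il7r* ran from -0.22 to 0.25. Averaged over populations, median ratio scaling turned *Csf3r* to 0.0039 and *Flt3* to 0.0295, and leaving out single libraries gave ranges of -0.22 to 0.10 for *Csf3r*, -0.10 to 0.015 for *Flt3* and -0.24 to 0.041 for *Kit*. Median ratio scaling moved the median of all genes in MPPs from -0.11 to -0.01, and TPM that in CD115- CDPs from -0.07 to -0.19. Apart from *Kit* in MPPs, the block moved a member across the threshold only where its value is given beside the result.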
